A study of Mus musculus with 16 samples.

Results

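The genes described here are those that bacterial lipopolysaccharide (LPS) raised in macrophages while dexamethasone (Dex), a synthetic glucocorticoid, left them nearly where they were. They number 100 of the 9614 genes measured and include Gbp5, Kdm6b, Clec4e, Pde4b, Nod2, Cflar and Tlr2. They were chosen by their measured values. A gene had a mean log2 CPM (CPM being a gene's reads scaled to a common library size, here on the log2 scale) of at least 2 in the wild type (WT) LPS libraries, a mean same-mouse change with Dex under 0.2 log2 in both genotypes, no place in the study's published list of Dex-repressed genes and a symbol outside 14 excluded prefixes (chemokines, interleukins, Tnf, Nfkb, Irf, Fos, Jun, Egr, Dusp and similar families). Of the 7703 genes that passed, the 100 with the highest score were kept, where the score is the smallest LPS rise in WT mouse B and NELF-B knockout (KO) mice A and B. The LPS rise and the small Dex change are therefore the choice itself and are given as a description, with no test.

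The 16 libraries were made from polyA RNA of bone-marrow-derived macrophages (BMDM) of male C57BL/6 mice aged 8 weeks. WT mice were LysM-Cre:NELF-B wt/wt and KO mice were LysM-Cre:NELF-B fl/fl, so that all cells carried LysM-Cre, which drives recombination in myeloid cells, and the genotypes differed in the floxed gene for NELF-B, a subunit of the complex that holds RNA polymerase II near the start of genes. For each genotype there were 2 untreated libraries (mice A and B), 3 libraries treated for 1 hr with 10 ng/ml LPS and 3 treated for 1 hr with 10 ng/ml LPS and 100 nM Dex (mice A, B and C), each mouse giving its own LPS and LPS+Dex pair. The letters stand for the animals in the labels, and a shared letter joins a WT and a KO mouse on uneven grounds. Some libraries of both mice B name the same date, and the labels of both mice C carry a number with the letter S that the others lack. Mice A are the remaining pair, with no shared date or run in the labels. Where the letters serve as a block below they are called batch letters, though for mice A this rests on elimination.

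LPS is sensed by TLR4, which acts through NF-kB, MAP kinase and interferon pathways to raise cytokines, receptors, signalling inhibitors and survival genes. Dex binds the glucocorticoid receptor (GR), which turns on genes such as Tsc22d3 and Fkbp5 and lowers many, but not all, of the LPS-induced genes. Genes that resist Dex at an early time are used to ask what sets the repressed genes apart.

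The recovered depth was 25030934 to 49730083 reads per library, and the smallest count of a member in any library was 12 reads. Nelfb lay between 5.59 and 6.21 log2 CPM in the WT and between 3.27 and 4.38 in the KO libraries. Dex acted in all 6 mice, since Tsc22d3 rose by 3.62 to 4.04 log2 with LPS+Dex over LPS. Of the 13 measured genes listed as GR-induced, Fkbp5, Per1, Ddit4, Mt1 and Mt2 also rose in all 6 mice. Errfi1, Cdkn1a, Angptl4, Rgs2 and Bcl6 were lower with Dex in all 6, and Sgk1 and Sult1a1 differed in sign between mice. Of 12 macrophage markers 11 were measured, and 10 of them lay between 6.22 (Mertk) and 12.44 (Emr1) log2 CPM in the untreated libraries, with Csf1r and Mpeg1 above 11 throughout. The remaining one, the member Lyz2, was low, at 4.31 to 5.42. Of other cell types, 1 of 12 neutrophil and progenitor markers, 2 of 12 lymphocyte and 2 of 8 dendritic cell markers were measured. So were 5 of 13 stromal, mast and erythroid markers, summing to 65.0 to 219 CPM. The lymphocyte marker Cd4 ranged from 2.37 to 5.89 log2 CPM and the dendritic cell marker Ccr7 from -1.12 to 3.33. Ccr7 was highest in both mice B in every treatment. The bearing of such differences between mice on the members was not tested. The untreated library of WT mouse A stood apart, with correlations to the other libraries of 0.83 to 0.91 over all genes, against 0.92 to 0.99 among the rest. The score does not use it, and values that rest on it are named below. In bulk RNA, fewer cells of a type and less RNA per cell cannot be told apart.

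The strongest LPS rise among the members was that of Gbp5, an interferon-inducible GTPase of the guanylate-binding family that acts in inflammasome defence. Gbp5 lay at 1.23 and 1.64 log2 CPM in the untreated WT libraries and at 1.87 and 2.02 in the untreated KO libraries. With LPS it stood at 6.37, 5.92 and 6.50 in mice A, B and C of the WT and at 6.32, 6.75 and 5.38 in those of the KO. With LPS+Dex it stood at 6.40, 6.21 and 6.54 in the WT and at 6.45, 6.89 and 5.52 in KO mice. Every stimulated library was above every untreated library by more than 3 log2, and Gbp5 was higher with Dex than without in all 6 mice, by 0.03 to 0.29 log2. Its smallest LPS rise, 4.28 log2, was a 19.4-fold change.

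Kdm6b, which encodes a demethylase that removes the repressive methyl marks from lysine 27 of histone H3, rose by 3.01 log2 in WT mouse B and by 3.28 and 3.09 in KO mice A and B. With Dex it changed by -0.09 ± 0.26 (SD, n = 3) in the WT and by 0.11 ± 0.13 (SD, n = 3) in the KO mice, so that the mice of both genotypes were spread around 0. Gm6377, a predicted coding gene on the X chromosome, rose by 3.53 to 3.85 log2 in the scored mice and changed with Dex by -0.12 ± 0.13 and 0.02 ± 0.02 (SD, n = 3 each) in the WT and KO.

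Several of the strongest members sense microbes. Clec4e, the C-type lectin receptor Mincle, rose by 3.12, 2.87 and 3.66 log2 in WT mouse B and KO mice A and B, and its level with LPS+Dex was 9.02, 8.87 and 8.21 log2 CPM in WT mice C, A and B against 9.01, 9.08 and 8.22 with LPS alone. Nod2, the cytosolic sensor of bacterial muramyl dipeptide, rose by 2.36, 2.35 and 2.67 log2 in the same order and changed with Dex by -0.02 ± 0.12 (SD, n = 3) in the WT. Tlr2, the receptor for bacterial lipoproteins, rose from 7.82 in both untreated WT libraries to between 9.89 and 10.11 with LPS. Tlr2 was lower with Dex in all 6 mice, by 0.05 to 0.29 log2, a loss that was small beside its rise of 1.89 to 2.07 log2 in the scored mice.

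Pde4b, a phosphodiesterase that breaks down cyclic AMP, rose by 2.82, 2.38 and 2.98 log2 in the scored mice, and its mean Dex change was -0.07 ± 0.04 (SD, n = 3) in the WT and 0.00 ± 0.02 (SD, n = 3) in the KO mice. Pim3, a serine/threonine kinase that promotes survival, rose by 2.07 to 2.14 log2. Cflar, the inhibitor of caspase-8 known as c-FLIP, rose by 1.89, 2.25 and 2.22 log2, and Dex moved it by -0.08 ± 0.01 (SD, n = 3) in the WT and by 0.02 ± 0.02 (SD, n = 3) in the KO. Sgk1, whose name records its induction by serum and glucocorticoids, rose by 2.03, 1.77 and 1.89 log2 with LPS, and the added Dex changed it by -0.05 ± 0.09 (SD, n = 3) in the WT and by 0.06 ± 0.03 (SD, n = 3) in the KO mice. Its level was 8.88 to 9.58 log2 CPM in the LPS libraries and 8.91 to 9.64 in the LPS+Dex libraries.

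The remaining members among the 15 highest scores were Trim13, Dnajb4, Rab20, Zfand5 and the long noncoding RNA 1110002J07Rik. Dnajb4, a co-chaperone of Hsp70, rose by 1.73 to 2.12 log2 in the scored mice and was lower with Dex in all 6 mice by 0.03 to 0.25. Rab20, a small GTPase of vesicle transport, rose by 1.67 to 1.80 log2 and was lower with Dex in all 6 mice by 0.08 to 0.24. Zfand5, a zinc finger protein that binds the proteasome, rose by 1.66 to 1.90 log2. 1110002J07Rik rose by 1.54, 2.00 and 3.25 log2 from levels of -0.24 to 0.79 log2 CPM, which in the shallowest case was 23 reads, and its rise differed the most between mice among these 15 genes.

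**Figure D1:**
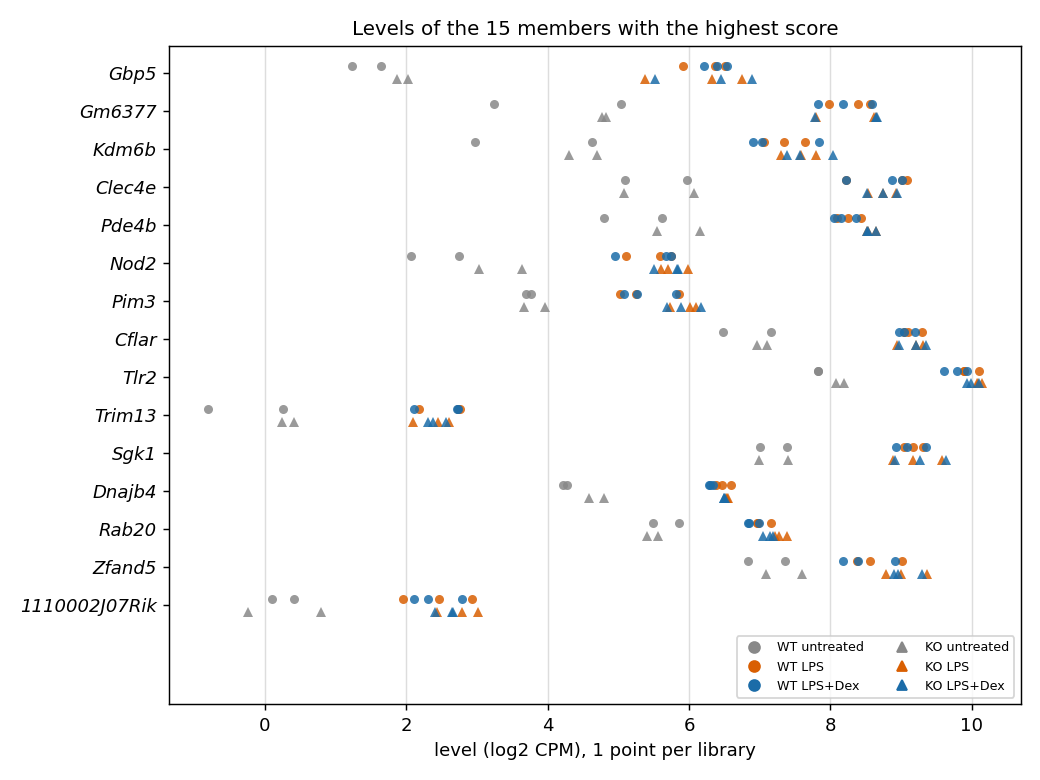
Level in log2 CPM (horizontal axis) of the 15 members with the highest score (rows), 1 point per library, with circles for WT, triangles for NELF-B KO and colours for the treatment. In each row the LPS and LPS+Dex points lie together and to the right of the untreated points, as for Gbp5, which lay at 1.23 to 2.02 untreated and at 5.38 to 6.89 in the stimulated libraries.

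Cd40 and Trim13 are named by the study as insensitive to Dex, and both are members. Trim13, a membrane-bound ubiquitin ligase, lay at -0.80 and 0.26 log2 CPM in the untreated WT libraries and at 2.17 to 2.77 in the WT LPS libraries. It is thinly covered, with 12 to 51 reads in the untreated libraries, and its Dex change was -0.04 ± 0.03 (SD, n = 3) in the WT and 0.04 ± 0.23 (SD, n = 3) for KO mice. Cd40, a receptor of the TNF receptor family through which T cells activate macrophages, rose from 3.19 and 3.49 in the untreated WT libraries to 4.70, 4.90 and 5.12 with LPS, and with LPS+Dex it stood at 4.37, 5.07 and 5.06 in mice A, B and C. Cd40 was lower with Dex in WT mice A and C and higher in mouse B. Tnfsf9, the ligand 4-1BBL also so named, is kept out by its symbol. With LPS it rose by 6.85 and 6.88 log2 in WT mice A and B and by 7.18 and 6.99 in KO mice A and B. It was lower with Dex in all 6 mice, by 0.01 to 0.24. Cxcl10, a chemokine that draws T cells, is so named too, but it stands in the study's Dex-repressed list, and its symbol keeps it out as well. It was lower with Dex in all 6 mice, by 0.72 to 0.92 log2, and it was added after its values were seen.

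The members nearest the limit were Ankrd32, Magohb and Fpr1, each with a score of 0.444 log2, and the genes just outside were Top1 (0.442), Tifa (0.440) and Cyth2 (0.438). A score of 0.444 is a 1.36-fold rise, and 30 members have a score of 1.5-fold or less, 70 above 1.5-fold, 32 above 2-fold and 7 above 4-fold. The limit on Dex alone left out 131 genes whose score reached that of the last member, the nearest being Rnf2, with a Dex change of -0.21 in the WT, and Gtf2b, also with -0.21.

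The LPS pair of WT mouse A was not in the score, though its LPS library entered the WT level filter and the WT Dex mean. There 94 of the 100 members were higher with LPS, where 52.0% of all genes were, 78 of them by over 1.5-fold, with a median of 1.25 log2. That pair rests on the untreated library that stood apart, and 27.9% of all genes rose by over 1.5-fold in it, against 4.26% in WT mouse B, 4.47% in KO mouse A and 4.95% in KO mouse B. The members that did not rise in WT mouse A were H2-Q7, F10, Fas, H2-Q6, Lyz2 and Magohb, at -0.47 to -0.06 log2. With the WT mouse A pair added to the score, 86 of the 100 members were kept.

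With Dex the members moved by small amounts. The median change over the members was -0.09, -0.05 and -0.08 log2 in mice A, B and C of the WT and -0.04, -0.03 and -0.05 in those of the KO, while the median of all genes lay between -0.01 and 0.00 in every mouse. The 173 genes of the study's Dex-repressed list that are in the table had medians of -0.52 to -0.65 log2 in the WT and -0.55 to -0.61 in the KO mice. That list was drawn up on some of these libraries and is shown for scale only. The choice of high LPS values in the scored mice can also lower the Dex change of members in those mice. In linear CPM, and within the mouse, the median member kept 93.1%, 94.8% and 96.0% of its LPS rise with Dex in WT mouse B and KO mice A and B. In WT mouse A the median was 90.2% over the 94 members that were higher with LPS there. The medians of the Dex-repressed genes were 40.9%, 51.4% and 50.4% in the first 3 and 55.7% in WT mouse A.

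**Figure D2:**
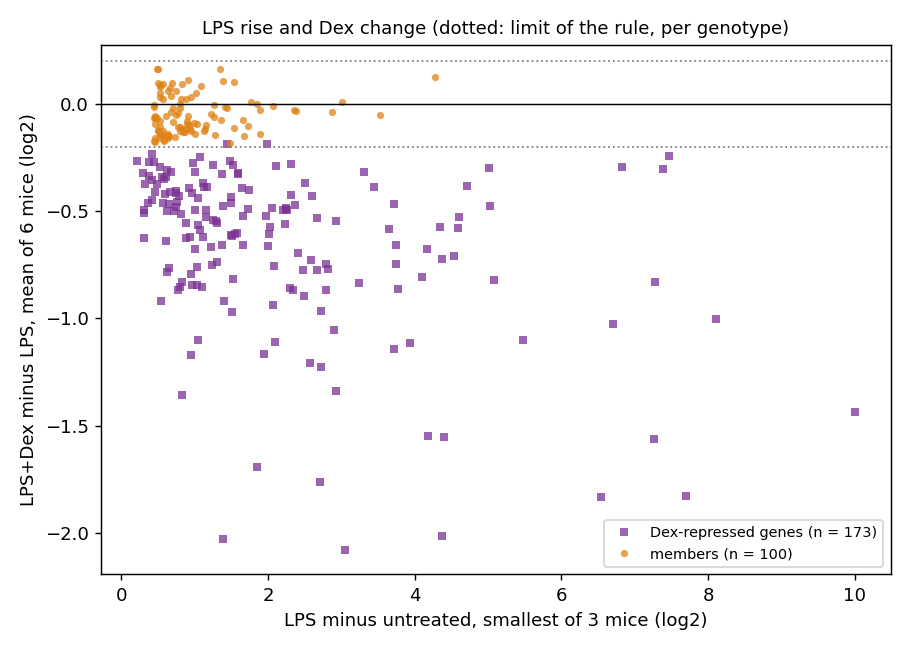
Mean change with Dex over 6 mice (vertical axis, log2) against the smallest LPS rise in the 3 scored mice (horizontal axis, log2), 1 point per gene, for the 100 members and the 173 Dex-repressed genes, with the limit of 0.2 log2 dotted. Members fill the band around 0 by their choice, and most lie at LPS rises under 2 log2, while the Dex-repressed genes reach about 10 log2 on the LPS axis.

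Some members changed with Dex in the same direction in all 6 mice. Under the limit of 0.2 log2, 32 of the 100 members were lower with Dex in all 6 mice, where 10.4% of all genes were, and 3 were higher in all 6, where 9.16% of all genes were. The rule bounds the size of these changes and was set on the same contrast. Its score also chose high LPS values in WT mouse B and KO mice A and B. Those LPS libraries are subtracted in the Dex change, which can tilt it downward in these mice. The counts are therefore descriptive and not independent of the rule. The members lower in all 6 mice included Plk3 (mean of 6 mice -0.18 log2), Relb (-0.15), Rab20 (-0.15), Ccng2 (-0.15), Tlr2 (-0.14), Ptafr (-0.14) and Gch1 (-0.13). The most even was Sema4d, a semaphorin on leukocyte surfaces, at -0.13 to -0.20 in the single mice. The members higher in all 6 mice were Rnf19b (0.12 to 0.19), Gbp5 (0.03 to 0.29) and Slfn2 (0.03 to 0.16). The genes of this paragraph other than Gbp5, Rab20, Tlr2 and Rnf19b were picked after their values were seen, for their sign in all 6 mice.

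A mean near 0 can also hide mice that moved apart. In all 6 mice 94 of the 100 members stayed within 1.3-fold, as did 85.3% of all genes. The 6 members that did not were Adamts1, Bcl2a1a, H2-Q7, Gbp2, Mnda and Col4a2. Adamts1, a secreted metalloprotease, changed by -0.55, 0.86 and -0.82 log2 in mice A, B and C of the WT and by -0.30, 0.31 and -0.26 in the KO mice. Its LPS levels were 2.62, 1.25 and 3.20 log2 CPM in the same WT mice, against 2.06, 2.11 and 2.39 with LPS+Dex, so the mice differed mainly in the LPS library. The mean Dex change of Adamts1 was -0.17 ± 0.90 (SD, n = 3) in the WT, and its place among the members rests on that average.

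**Figure D3:**
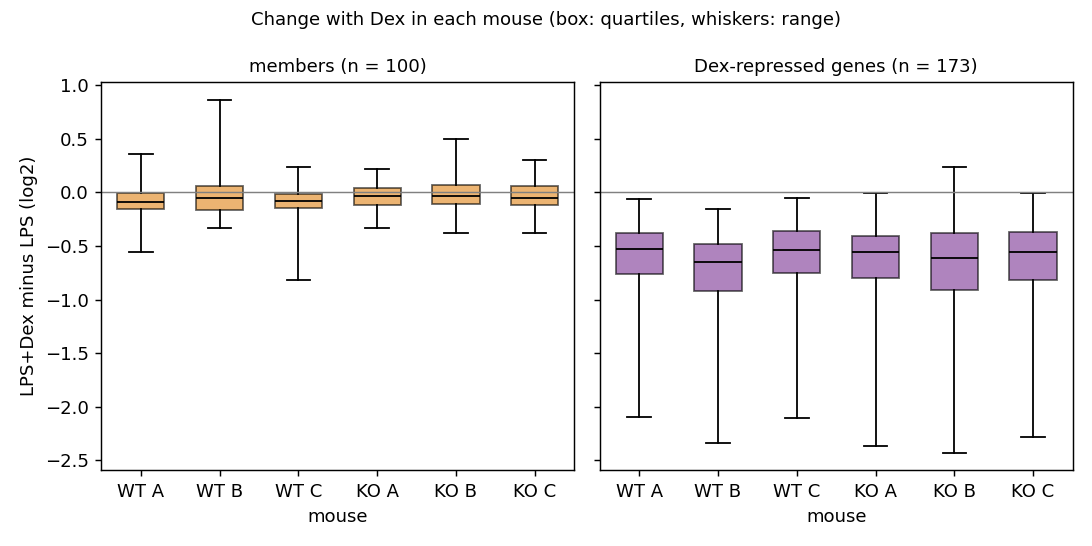
LPS+Dex minus LPS in log2 (vertical axis) for each of the 6 mice (horizontal axis), with boxes at the quartiles and whiskers over the full range, for the 100 members and the 173 Dex-repressed genes. The member boxes span 0 in WT mouse B and in the 3 KO mice and end just below 0 in WT mice A and C, with medians of -0.09 to -0.03, and the boxes of the Dex-repressed genes lie below 0 throughout, with medians of -0.65 to -0.52.

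Members are 100 of all 9614 genes measured, and the counts by role list below are to be read beside that share. The lists were drawn up with earlier results of these data known, so the counts are descriptive. Among receptors and surface molecules, 9 of the 88 listed genes in the table were members and 11 were Dex-repressed. Beside Clec4e, Tlr2 and Cd40 these were Pvr, a ligand of lymphocyte receptors, C5ar1, the receptor for complement C5a, Vcam1, an adhesion molecule, Ptafr, the receptor for platelet-activating factor, Sema4d, and Fpr1, the receptor for formylated bacterial peptides. C5ar1 rose by 1.15, 1.44 and 1.44 log2 in the scored mice and changed with Dex by -0.10 ± 0.04 (SD, 3 WT mice) and -0.10 ± 0.09 (SD, 3 KO mice). Pvr rose by 1.45 to 1.68 log2 and changed by -0.03 ± 0.07 and -0.01 ± 0.03 (SD, n = 3 each).

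Cell death regulators gave 6 members of 31 listed genes in the table, and 3 of the 31 were Dex-repressed. The 6 are Cflar, Birc3, Bcl2a1b, Bcl2a1a, Mcl1 and Fas. Of these Fas is a death receptor and the others are known to oppose cell death. Birc3, a ubiquitin ligase also called cIAP2, rose by 1.27 to 1.56 log2 and changed with Dex by -0.05 ± 0.04 and 0.03 ± 0.03 (SD, n = 3 each). Mcl1, a relative of Bcl2, rose by 0.77 to 1.02 log2. Bcl2a1a and Bcl2a1b are near-identical copies on chromosome 9, and reads kept only where they match a single place can leave their levels uncertain.

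Kinases, phosphatases and signalling inhibitors gave 8 members of 83, with 12 of the 83 Dex-repressed. Beside Pde4b, Pim3 and Sgk1 these include Plk3, a stress-response kinase that rose by 1.48 to 1.65 log2, Dyrk2, Mapk6, Irak2 and Clk1. Irak2, which relays Toll-like receptor signals to NF-kB, rose by 0.88 to 1.28 log2 and changed with Dex by -0.01 ± 0.03 (SD, n = 3) in the WT. Among NF-kB regulators and adaptors 5 of 45 were members (Trim13, Birc3, Irak2, Relb and Bcl10) and 4 were Dex-repressed.

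Members made up 3.70% of the immediate-early and stress response genes and 4.17% of the secreted factors and effector enzymes. Of 54 immediate-early genes measured, 2 were members (Sgk1 and Plk3) and 18 Dex-repressed. Of 48 secreted factors and enzymes 2 were members (Adamts1 and Gch1, which makes the cofactor tetrahydrobiopterin) and 18 Dex-repressed. The excluded prefixes cover many genes of both lists, and the repressed list was not cut by prefix. In the whole table, the prefix alone kept out 8 genes whose score reached that of the last member. The members and the repressed list rest on unlike rules, so these counts cannot be compared as shares. Of 96 transcription factors 4 were members (Tfec, Nfe2l2, Relb and Mafg) and 13 Dex-repressed.

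The list of chromatin and transcription cofactors gave 4 members of 64 (Kdm6b, Sertad2, Kdm7a and Ncoa7), and 1 of the 64 was Dex-repressed. Small GTPases, their regulators and the cytoskeleton gave 6 of 78, led by Rab20, Rabgef1, Snx18 and Ehd1, and ubiquitin enzymes 4 of 55, led by Trim13, Rnf19b and Birc3. RNA processing gave 3 of 47 (Pcf11, Rbm7 and Clk1). Interferon-stimulated genes gave 4 of 45, namely Gbp5, Slfn2, Gbp2 and Gbp3. In all, 50 members were in at least 1 list and 50 in none.

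Some members lie next to each other in the genome (GRCm38). Gbp5 (chr3:142493978-142522344), Gbp3 (chr3:142560026-142573209) and Gbp2 (chr3:142620602-142638008) are in the same cluster, as are H2-Q6 (chr17:35424850-35430055) and H2-Q7 (chr17:35439155-35443773). Rab20 (chr8:11453518-11478710) neighbours Col4a2 (chr8:11312805-11449287). Members of these gene families share sequence, so their separate levels are uncertain. Gene positions were found for 99 of the 100 members, and 2 of them start within 100 kb of the start of a Dex-repressed gene, Ppp1r10 near Ier3 and Gramd1a near Hpn. That is 2.02% of the members, against 3.32% of all genes and 12.7% of the Dex-repressed genes themselves.

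Gene structure was not used by the rule. The median member spans 23.4 kb and has 8 exons, all genes have medians of 24.5 kb and 9 exons, and the Dex-repressed genes 13.9 kb and 5 exons. The quartiles overlap widely, at 9.54 to 41.1 kb for members and 6.60 to 28.4 kb for Dex-repressed genes. In the longest annotated coding transcript of each gene, the AU-rich nonamer TTATTTATT, a mark of unstable mRNAs, was found in the stretch after the stop codon of 18 of 97 coding members (18.6%), 15.9% of the Dex-repressed genes and 8.16% of all genes. The shorter ATTTA occurred 2.62 times per kb of that stretch in members, 2.36 in Dex-repressed genes and 1.83 in all genes. Cflar carries the nonamer and 13 copies of ATTTA, whereas Tlr2 and Trim13 carry neither.

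Promoters were searched from 250 bases before to 50 bases after the first listed start in RefSeq (GRCm38.p6), which lists 86 of the members. The kB motif bound by NF-kB, searched by its degenerate consensus on both strands, matched in 16 of the 86 (18.6%), in 21.3% of 136 Dex-repressed promoters, in 10.0% of 7812 promoters of all genes measured and in 8.18% of 27025 promoters in all. The interferon-response motif ISRE matched in 6 members (6.98%), namely Gbp5, Cflar, Sgk1, Gbp2, Mnda and Gbp3, in 5.15% of Dex-repressed and in 3.30% of all measured genes, with 3.49% of all promoters. TATAA between 45 and 15 bases before the start matched in 4 members (4.65%), in 8.82% of Dex-repressed and 1.79% of all measured genes, with 4.23% of all promoters. AP-1 (TGANTCA) matched in 6.98%, 10.3% and 4.92%, with 7.93% of all promoters, and CRE (TGACGTCA) in 3.49%, 7.35% and 3.43%, with 1.88%. The shorter TGACG, which every CRE match also holds, occurred in 36.0%, 33.1% and 34.1%, with 21.0%. CArG matched in 1 member, Sema4d (1.16%), 2.21% and 1.24%, with 1.57%, and EGR (GCGTGGGCG) in 1 member, Bcl2a1b (1.16%), 3.68% and 1.28%, with 0.625%. The palindromic GRE bound by GR matched in 0 of the 86 members, 0 of the Dex-repressed and 0.192% of all measured genes, with 0.463% of all promoters. All motifs except TATAA were searched on both strands, and a match is a description of letters, not a shown binding site.

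**Figure D4:**
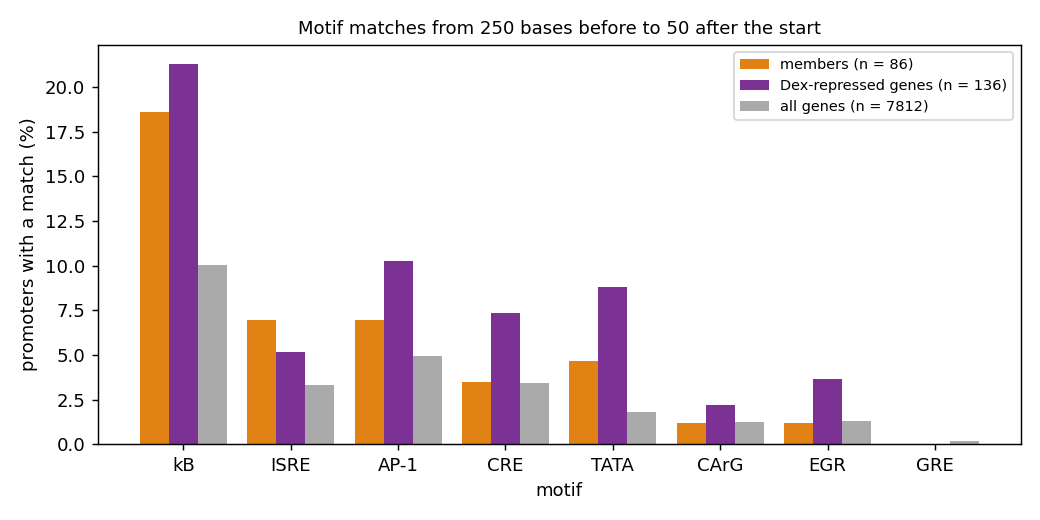
Share of promoters with a motif match in percent (vertical axis) for 8 motifs (horizontal axis) in members (n = 86), Dex-repressed genes (n = 136) and all genes measured (n = 7812). The kB bars of the members (18.6%) and of the Dex-repressed genes (21.3%) both stand above that of all genes (10.0%). The Dex-repressed genes have the tallest bar for kB, AP-1, CRE, TATA, CArG and EGR, and the members for ISRE.

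The kB matches of the 4 members among the 15 highest scores that have one are shown here in capitals, so that the stretch can be seen beside the LPS levels above. Each sequence runs 5′ to 3′ on the strand of the gene from 250 bases before to 30 bases after the start. In Gbp5 the match begins 77 bases before the start and in Pim3 136 bases before. Tlr2 holds a pair of overlapping matches 173 and 172 bases before the start and another 8 bases before it, and in Trim13 the match begins 4 bases before the start. Cd40 and Kdm6b are not in the promoter table.
Gbp5, chr3:142496684-142496963, plus strand: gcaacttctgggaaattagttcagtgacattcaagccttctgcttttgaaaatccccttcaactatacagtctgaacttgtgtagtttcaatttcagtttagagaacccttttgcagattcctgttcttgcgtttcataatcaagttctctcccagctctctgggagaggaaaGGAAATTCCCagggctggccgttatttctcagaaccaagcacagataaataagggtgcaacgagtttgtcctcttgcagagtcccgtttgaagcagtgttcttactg
Pim3, chr15:88861944-88862223, plus strand: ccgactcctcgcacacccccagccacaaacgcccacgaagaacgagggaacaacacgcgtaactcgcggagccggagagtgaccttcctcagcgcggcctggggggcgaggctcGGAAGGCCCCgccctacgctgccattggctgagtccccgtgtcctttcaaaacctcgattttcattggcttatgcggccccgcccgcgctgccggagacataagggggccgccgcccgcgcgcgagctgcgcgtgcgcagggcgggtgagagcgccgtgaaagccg
Tlr2, chr3:83841579-83841858, minus strand: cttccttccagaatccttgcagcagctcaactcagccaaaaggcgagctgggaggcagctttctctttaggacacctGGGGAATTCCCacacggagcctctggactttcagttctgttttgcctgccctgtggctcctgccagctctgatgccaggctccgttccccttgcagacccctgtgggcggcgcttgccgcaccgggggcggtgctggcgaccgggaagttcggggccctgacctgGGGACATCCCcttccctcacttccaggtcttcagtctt
Trim13, chr14:61597976-61598255, plus strand: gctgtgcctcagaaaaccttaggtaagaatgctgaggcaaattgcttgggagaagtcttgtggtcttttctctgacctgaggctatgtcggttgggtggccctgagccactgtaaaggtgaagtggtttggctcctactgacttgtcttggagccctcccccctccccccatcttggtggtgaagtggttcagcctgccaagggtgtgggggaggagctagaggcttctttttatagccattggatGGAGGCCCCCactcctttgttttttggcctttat

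The rule did not set the genotypes against each other, and each treatment was tested separately with limma over all 9614 genes. Its score, however, used the LPS rise of KO mice A and B and, of the WT, only that of mouse B. High LPS values were thus chosen unevenly between the genotypes, and the counts below are not independent of the rule. Under LPS, 0 of the 100 members passed an FDR of 0.05 and 1.5-fold, as did 0% of all genes. Nelfb, the deleted gene, did not pass either, at -2.02 log2 with an adjusted p of 0.105 (limma). Its values were -2.00 and 0.0889 under LPS+Dex and -2.11 and 0.889 untreated. A count of 0 in these tests therefore does not show that the genotypes are alike. At an unadjusted p under 0.05 and any fold, 13 members were higher in the KO, where 3.37% of all genes were, and 2 were lower, where 5.07% were. With over 1.5-fold asked as well, 1 was higher (0.926% of all genes) and 0 lower (2.60%). The KO libraries lay above all WT libraries for 15 members (5.91% of all genes) and below them for 4 (7.82%). Most differences were small: the median over members was 0.03 log2, against 0.00 over all genes, 90 members differed by less than 1.3-fold, and for 54 the whole 95% interval of the difference lay within 1.5-fold. Without the LPS library of KO mouse A, 7 members were at an unadjusted p under 0.05 in place of 15, where 4.94% of all genes were. The median over members also moved with single libraries, to -0.03 without KO mouse B and to 0.12 without KO mouse C.

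Under LPS+Dex the count past the FDR was again 0 of 100 (0% of all genes). At an unadjusted p under 0.05, 17 members were higher in the KO (5.38% of all genes) and 2 lower (5.96%), of which 1 (1.11%) and 0 (2.64%) were past 1.5-fold. The libraries did not overlap for 17 members that were higher (8.93%) and 4 that were lower (8.83%). The median difference was 0.09 log2, against 0.01 over all genes, and 54 members again had an interval within 1.5-fold. Without the LPS+Dex library of KO mouse A, 10 members were at an unadjusted p under 0.05 (6.85% of all genes), and with the batch letters as a replicate block 31 were (23.8% of all genes). The median difference was 0.02 without KO mouse B and 0.18 without KO mouse C. The shift was not the same for all letters. The score used both mice B, only the KO mouse of mice A, and neither of mice C. Within the pairs of mice that share a letter, the median member was higher in the KO by 0.21 log2 under LPS and 0.20 under LPS+Dex in mice B, by 0.01 and 0.12 in mice A, and was at -0.11 and -0.08 in mice C.

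In both treatments 11 members were above all WT libraries (3.77% of all genes) and 3 below (5.55%). The 11 were Pde4b, Rab20, Snx18, Rnf19b, C5ar1, Srgn, Nfe2l2, Mcl1, Ptafr, Tma16 and Lyz2, and the 3 were Rusc2, Mafg and Intu. The LPS and LPS+Dex libraries come from the same mice, so the treatments do not repeat each other independently.

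Lyz2, lysozyme, was the member that differed most with LPS and with LPS+Dex. It lay at 4.45, 4.97 and 5.30 log2 CPM in the WT LPS libraries of mice A, B and C and at 5.92, 5.95 and 6.33 in the KO, a difference of 1.16 ± 0.22 (SE) with an adjusted p of 0.246 (limma). Under LPS+Dex it lay at 4.30, 4.75 and 5.08 in the WT and at 5.77, 6.02 and 6.24 in the KO, a difference of 1.298 ± 0.21 (SE) with an adjusted p of 0.172. The untreated libraries stood at 4.63 and 4.31 in the WT and 5.42 and 5.38 in the KO, so the groups did not overlap in any treatment. With the mouse as a replicate block over the 12 stimulated libraries Lyz2 passed, with adjusted p-values of 0.022 under LPS and 0.0172 under LPS+Dex, and with the batch letters as a replicate block they were 0.0555 and 0.0241. Lyz2 is also the locus into which LysM-Cre is inserted, and it is nearly identical to Lyz1. Lyz1 lay at 5.13 to 7.09 log2 CPM in the WT LPS libraries and at 5.77 to 6.50 in the KO, with overlap. The part of the Cre allele or of reads shared with Lyz1 in the Lyz2 difference was not tested.

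Rnf19b, a ubiquitin ligase of cytotoxic lymphocytes and macrophages, lay at 8.09, 8.00 and 8.22 log2 CPM in mice A, B and C of the WT with LPS and at 8.62, 8.48 and 8.76 in the KO. The difference was 0.52 ± 0.11 (SE) under LPS and 0.49 ± 0.10 (SE) under LPS+Dex, with adjusted p-values of 0.254 and 0.180. With the mouse as a replicate block these became 0.0332 and 0.0331, at less than 1.5-fold. Srgn, the proteoglycan serglycin of secretory granules, differed by 0.40 ± 0.09 (SE) and 0.53 ± 0.12 (SE), with adjusted p-values of 0.254 and 0.198, and the latter was 0.0376 with the batch letters as a replicate block. Its LPS levels were 7.20, 7.16 and 7.28 in mice A, B and C of the WT and 7.53, 7.65 and 7.66 in the KO, a gap larger than the spread within either genotype.

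Further large positive differences were found among members at an unadjusted p under 0.05 whose libraries did not overlap. Under LPS they were those of Ccng2, a cyclin (0.55 ± 0.20 SE, adjusted p = 0.495), and Tma16 (0.39 ± 0.10 SE, adjusted p = 0.286). By the same limits, under LPS+Dex they were those of Clk1, a kinase of splicing factors (0.58 ± 0.19 SE, adjusted p = 0.298), and Snx18, a sorting nexin (0.42 ± 0.11 SE, adjusted p = 0.216). Ccng2 and Clk1 came directly after Lyz2 in size. Pim3 differed by more than most of these, by 0.57 ± 0.22 (SE, adjusted p = 0.516) under LPS and 0.53 ± 0.21 (SE, adjusted p = 0.403) under LPS+Dex, but its WT and KO libraries overlapped. Intu, which takes part in building cilia, was lower in the KO. It stood at 2.46 to 2.53 log2 CPM in the WT LPS libraries and 1.91 to 2.04 in the KO, a difference of -0.54 ± 0.16 (SE, adjusted p = 0.333), and it differed by -0.55 ± 0.17 (SE, adjusted p = 0.260) under LPS+Dex. Rusc2 differed by -0.25 ± 0.10 (SE, adjusted p = 0.563) under LPS.

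**Figure D5:**
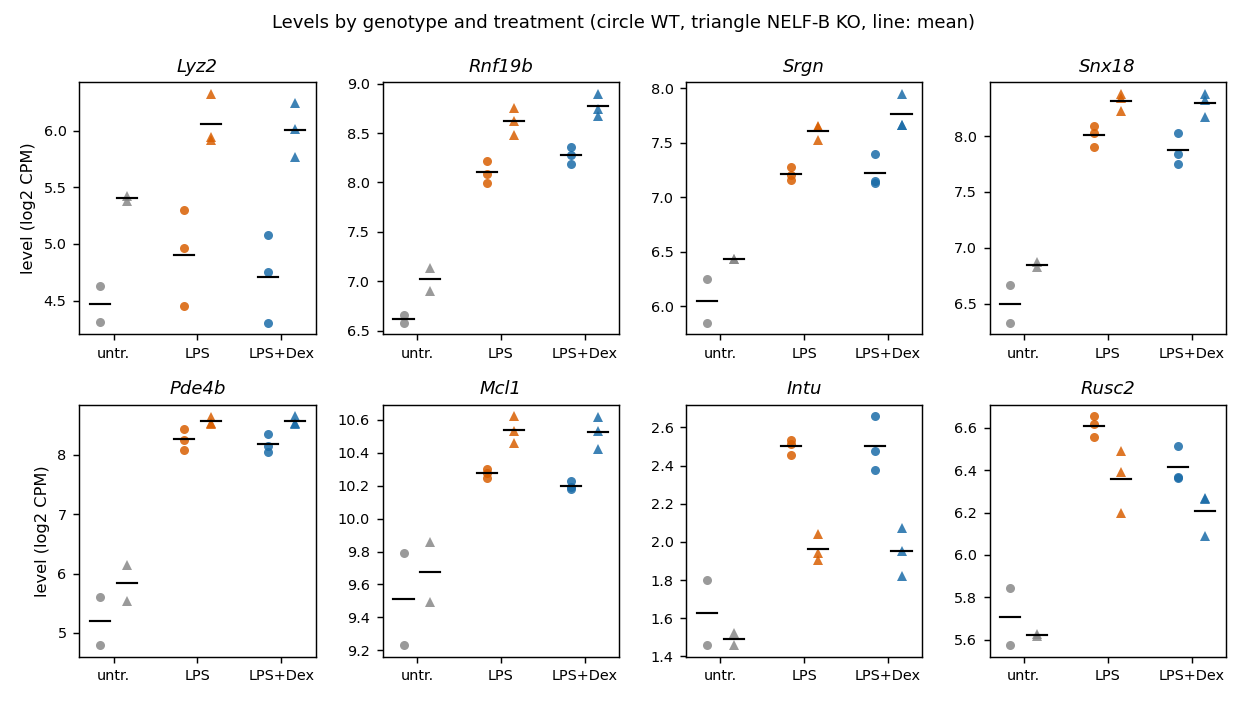
Level in log2 CPM (vertical axis, a separate range in each panel that does not start at 0) of 8 members whose stimulated WT and KO libraries did not overlap, by treatment (horizontal axis), with circles for WT libraries, triangles for KO libraries and lines at the means. Lyz2 to Mcl1 are higher in the KO with LPS and with LPS+Dex and Intu and Rusc2 lower, and for all 8 the adjusted p was above 0.05 when 3 libraries were compared with 3.

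Of the 15 highest-scoring members, Pde4b and Rab20 had no overlap between the genotypes in either treatment, and Dnajb4 and Tlr2 had none under LPS+Dex. Of all genes, 3.77% lay above and 5.55% below all WT libraries in both treatments, and 8.93% and 8.83% under LPS+Dex. Pde4b was higher in the KO by 0.38 ± 0.11 (SE, adjusted p = 0.235) and Rab20 by 0.24 ± 0.09 (SE, adjusted p = 0.358) under LPS+Dex. The libraries of the other 11 overlapped in both treatments. Gbp5 differed between the genotypes by -0.11 log2 under LPS, with a 95% interval of -0.91 to 0.68, and Nod2 by 0.28, with an interval of -0.15 to 0.71. Cd40 differed by 0.29 under LPS (interval -0.17 to 0.75) and by 0.40 under LPS+Dex (interval -0.17 to 0.98), and Trim13 by -0.18 (interval -0.72 to 0.36) and -0.10 (interval -0.60 to 0.40). The intervals of Gbp5, Nod2, Cd40 and Trim13 reach past 1.5-fold, so differences of that size could not be told from 0 with 3 mice a group.

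In untreated cells 0 of the 100 members passed the FDR in the 2 KO against 2 WT libraries (0% of all genes), and 1, Lyz2, was at an unadjusted p under 0.05 (0.385% of all genes). The median difference was 0.20 log2 higher in the KO. It fell to 0.02 without the untreated library of WT mouse A. Without that of WT mouse B, which leaves only the library that stood apart, 33 members passed the FDR, as did 40.6% of all genes. The largest difference here was that of Kdm7a, 1.08 ± 0.71 (SE, adjusted p = 0.889), with overlap. The untreated comparison of the genotypes thus turns on which WT library is kept.

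The members with the lowest mean in the WT LPS libraries were H2-Q6 (2.16 ± 0.73 log2 CPM), Magohb (2.27 ± 0.32), Adamts1 (2.36 ± 1.00), 1110002J07Rik (2.45 ± 0.49) and Col4a2 (2.48 ± 0.20), and those with the highest were Slfn2 (10.29 ± 0.06), Mcl1 (10.28 ± 0.03), Tlr2 (9.97 ± 0.12), C5ar1 (9.76 ± 0.20) and Ehd1 (9.50 ± 0.28), all as mean ± SD with n = 3. CPM is not divided by transcript length, so these values tell how many reads stood behind a gene and do not rank transcripts between genes.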

How the data were processed

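Paired 50 bp reads were mapped by the authors to mm10 in the Genomic Workbench of CLC Bio. From the uniquely mapped exon reads of each gene the authors used edgeR to scale by the weighted trimmed mean and deposited log2 CPM for 9614 genes. The submitters' notes also name CASAVA 1.8 and FastQC. Unique mapping lowers near-identical genes, and how the 9614 genes were filtered is not given in the sources used here. The deposited p-values and FDR of pairwise comparisons were not used. No pseudocount or filter was added.

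Values under 3 CPM fell on equal steps (100% within 0.1 of a whole read), which gave the depth. WT and KO libraries of a treatment were compared with lmFit and eBayes (with trend) in limma 3.58.1 (R 4.3.3), adjusted by Benjamini-Hochberg over all 9614 genes, and a member was called at FDR under 0.05 and over 1.5-fold. In simulated data the fit was tested with known changes. Other values came from Python 3.11.15, numpy 2.4.6 and pandas 2.3.3, and gene positions from GENCODE vM21 (GRCm38, as mm10).

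The LPS and LPS+Dex libraries of a mouse deviated alike from the means of their groups (r of 0.781 to 0.939 across genes), and so did mice that share a letter across genotypes (0.443 to 0.760). The pairing by mouse comes from animal numbers in the labels, while letter B rests on a shared date, letter C on S numbers in the labels and letter A on no shared label, so the batch block rests partly on elimination. Each mouse is 1 replicate. The members, role lists and rules were chosen with earlier results of these data known. Named genes were the 15 highest scores, the genes at the limit, those the study names as Dex-insensitive, the largest genotype differences with unadjusted p under 0.05 and no overlap, the level extremes, examples of each list and Nelfb. Alternatives were other blocks, a single fit of 16 libraries, centring, a level filter, log2(CPM + 1), voom, leaving out libraries and other member rules. Centring and log2(CPM + 1) for the direction with Dex were added after seeing the data.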

Additional observations from a re-analysis of the deposited data

How the results depend on the processing

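Depth limits the members with few reads, and 3 mice a group limit the genotype comparisons, in which intervals of many members reach past 1.5-fold. The count of members past the FDR and 1.5-fold was 0 under LPS, LPS+Dex and untreated. It became 1 (Lyz2) under LPS with the mouse as a replicate block over 12 libraries, and 1 (Lyz2) under LPS+Dex with that block and with the batch letters as a replicate block. It stayed 0 with the batch block under LPS and untreated, with a single fit of 16 libraries, centring, the level filter, log2(CPM + 1) and voom. Leaving out each library gave 0 to 0 under LPS and LPS+Dex and 0 to 33 untreated (33 where 40.6% of all genes were called), where the lone library left in a group is assumed to vary like the other group. With an unadjusted p and over 1.5-fold the count of 1 became 2 to 4 under LPS (2.76% to 5.64% of all genes) and 2 to 6 under LPS+Dex (3.08% to 5.94%) when libraries were left out. Untreated it became 5 with the batch block (4.12% of all genes), 7 with the single fit of 16 libraries (7.61%) and 0 to 38 when libraries were left out (45.5% of all genes at 38). At an unadjusted p and any fold, 15 members under LPS became 7 to 16 (4.94% to 11.6% of all genes) and 19 under LPS+Dex became 10 to 19 (6.85% to 14.5%) when libraries were left out, and 31 under LPS+Dex with the batch block (23.8%). Untreated, 1 member became 5 with the batch block (4.12%), 22 with the single fit (15.2%) and 0 to 52 when libraries were left out (55.0% at 52). With voom these counts were 15, 18 and 1. The 13 named genotype differences kept their sign in all 169 alternatives run. They were chosen for libraries that did not overlap, so leaving out a library could not turn their sign. The other settings refit the same libraries, and the kept sign is no support for the differences.

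Membership depended on the limit for Dex: with 0.1 in place of 0.2, 37 of the 100 members were kept, since the other 63 have a mean between these limits in at least 1 genotype. The other member rules kept 86 (WT mouse A added), 98 (no level filter), 99 (centring) and 94 (log2(CPM + 1)). The count lower with Dex in all 6 mice was 31 or 32 with centring and log2(CPM + 1).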

Other observations

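Members outside the role lists, picked after their values were seen, included a gene of the cell cycle. Mki67, the proliferation marker Ki-67, lay at 6.61, 6.19, 5.82 and 5.88 log2 CPM in the untreated libraries of WT mice A and B and KO mice A and B and at 7.14 to 7.82 in the LPS libraries. It rose in all 4 mice with an untreated library, by 1.21 to 1.68 log2, and changed with Dex by -0.14 ± 0.06 (SD, 3 WT mice) and 0.04 ± 0.08 (SD, 3 KO mice).

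Itpkb, a kinase of inositol phosphates, was among the members with the least spread in its response to Dex. It rose by at least 0.81 log2 with LPS in the scored mice and changed with Dex by 0.02 ± 0.04 in both genotypes (SD, n = 3 each). Lcp2, the adaptor SLP-76, rose by at least 0.915 log2 in the scored mice and changed by -0.08 ± 0.04 and -0.11 ± 0.09 (SD, n = 3 each). F10, coagulation factor X, rose by 0.66 to 1.298 log2 in the scored mice and stood at -0.21 in WT mouse A, whose untreated library held it at 4.28 log2 CPM against 2.77 to 3.12 in the other untreated libraries.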
